A study of Mus musculus with 8 samples.

Results

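Aminoacyl-tRNA synthetases are the enzymes that join each amino acid to its own transfer RNA, the step that fixes which amino acid a codon stands for. In animals the cytosol and the mitochondria use largely separate sets of these enzymes, both encoded in the nucleus. Several cytosolic synthetases are bound to 3 scaffold proteins in the multisynthetase complex, and the transcription factor ATF4 is known to raise many cytosolic synthetase genes when amino acids run short. The 36 genes described here were taken by symbol from a list of 20 cytosolic and 16 mitochondrial synthetases, out of 24924 genes of the count table, and all 36 had a readable value in every library. The list was chosen by measured values of these libraries, because Mars, the cytosolic methionyl-tRNA synthetase, was lower in both libraries of microglia from mice given interleukin-5 (IL-5). The contrast of IL-5 with saline in microglia is therefore given below as a description, without a test for any of these genes.

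RNA came from microglia, the resident macrophages of the brain, and from brain T cells, each sorted by surface markers from the brains of C57BL/6 mice 20 to 22 months old. No transgene or further allele is named for any group. Mice had received 2 µg of IL-5, known as a growth factor of eosinophils, daily on 2 days, or PBS (phosphate-buffered saline), and each of the 4 combinations of cell type and treatment had 2 libraries. The labels do not say whether the libraries of a group came from separate mice. The p-values set a difference against the spread between libraries, which may be technical, so they may not carry over to other mice.

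The libraries held 23536908 to 30423828 counts in genes, and levels are given as counts per 1000000 of them (CPM). A single count stood for 0.0329 to 0.0425 CPM, and where a count is 0, counting error alone leaves room for 3 counts (0.0986 to 0.127 CPM). Folds written below as at least a value use this limit. They allow for counting error but not for the spread between libraries, which was often far larger. Microglia IL-5 replicate 1 stood apart from the other microglia, with 13172 genes detected against at least 14318 and 25.5% of its reads outside genes against 15.2% to 17%. The 16 microglia markers summed to 58711 to 80774 CPM in microglia and to 104 to 184 CPM in T cells. The 14 T cell markers summed to 4760 to 7998 CPM in T cells and to 18.0 to 199.6 CPM in microglia. The 8 neutrophil markers summed to 13530 to 17512 CPM in the microglia libraries and to 0.602 to 26.96 CPM in T cells, so the microglia libraries also carried markers of another myeloid cell. Their part in the differences between cell types was not tested. Markers of the choroid plexus, a tissue inside the brain's ventricles, summed to 34206 to 95698 CPM over the 8 libraries. Most of that sum was the gene Ttr, at 33495 to 91511 CPM.

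Mars (ENSMUSG00000040354.14) lies on chromosome 10 at 127296221 to 127311786 of GRCm38, on the minus strand, with 20 merged exons that span 3.42 kb. Its exons share 68 bases, 1.99% of their length, with exons of Ddit3 on the opposite strand, and since the strand setting of the counting is not given in the sources used here, reads in that stretch cannot be assigned to one of the genes. PBS microglia held 53.6 and 41.3 CPM of Mars, from 1632 and 1121 counts. IL-5 microglia held 4.04 and 3.93 CPM, from 95 and 107 counts. Both IL-5 values lay below both PBS values and close to each other, at a log2 fold change of -3.41 (SE 0.64, n = 2 libraries per group). Without the library that stood apart, IL-5 replicate 1, the log2 fold change was -3.62, and without IL-5 replicate 2 it was -3.22. In bulk libraries such as these, fewer cells of a type and less RNA per cell cannot be told apart.

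Set against the other synthetases of the same library, Mars also moved down the order. Per kb of exon, Mars ranked 3 and 4 of the 36 genes in the PBS microglia libraries, and 19 and 30 in the IL-5 microglia libraries. It made up 8.11% and 6.91% of the summed CPM of the 20 cytosolic synthetases in PBS microglia, and 1.07% and 0.667% in IL-5 microglia. Within the 8 enzymes of the multisynthetase complex, compared per kb, the share of Mars was 35.6% and 33.1% after PBS and 5.78% and 3.62% after IL-5. Shares of this kind do not depend on how libraries are scaled, but they move with the other members, and Lars alone took 43.6% of the complex enzymes in IL-5 replicate 1. Ranks and shares per kb also depend on the exon length used, which merges the exons of all annotated transcripts. Counted against the microglia markers of the same library, Mars had 0.758 and 0.625 counts per 1000 marker counts after PBS and 0.04997 and 0.0669 after IL-5.

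The reason given for choosing this list names microglia and not T cells. Since earlier results of these data were known at that choice, the T cells are not an independent check. There Mars measured 110.3 and 128 CPM with PBS, against 59.4 and 70.9 CPM with IL-5, so that both IL-5 values were again the lower ones. The log2 fold change was -0.82 (SE 0.33), past the threshold of 0.05 only before adjustment over the 13897 genes tested (edgeR adjusted p = 0.9999, DESeq2 adjusted p = 0.576). Leaving out each library in turn moved it between -0.95 and -0.72. Per kb, the share of Mars in the complex enzymes was 19.1% and 22.1% after PBS and 11.1% and 15.1% after IL-5. In the same libraries the summed T cell markers were 7181 and 7998 CPM with PBS, against 4760 and 5877 CPM with IL-5, and the summed choroid plexus markers were 47349 and 67722 CPM with PBS, against 93884 and 95698 CPM with IL-5. Per 1000 counts of T cell markers, Mars had 15.4 and 16.04 counts after PBS and 12.5 and 12.1 after IL-5, and with the libraries scaled to those markers, an alternative chosen after seeing the data, its log2 fold change was -0.53.

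**Figure D1:**
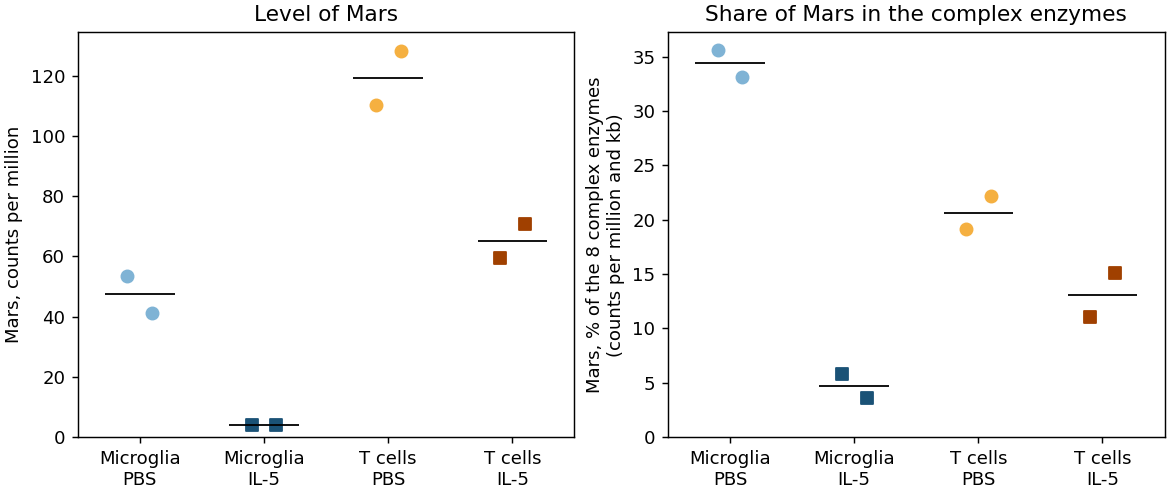
Left, Mars in CPM by group. Right, the share of Mars among the 8 enzymes of the multisynthetase complex, in percent of their summed CPM per kb. Points are libraries and lines are means of 2. In both panels the IL-5 points of each cell type lie below the PBS points, at 4.04 and 3.93 CPM against 53.6 and 41.3 CPM in microglia.

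Mars2, the mitochondrial methionyl-tRNA synthetase, is a separate gene on chromosome 1 with 1 exon, and its level was too uneven to follow the same question. It measured 0.56 and 9.61 CPM in PBS microglia and 0.042 and 1.98 CPM in IL-5 microglia. In T cells it measured 0.076 and 14.1 CPM with PBS, against 17.3 and 19.7 CPM with IL-5 (log2 fold change 1.45, SE 1.99, edgeR adjusted p = 0.9999). Replicates of one group thus differed more than the groups did in microglia. Ddit3, the stress-induced transcription factor CHOP whose gene overlaps the end of Mars, measured 62.3 and 40.1 CPM in PBS microglia and 16.4 and 53.9 CPM in IL-5 microglia. Its values overlapped between those groups, unlike the values of Mars.

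Promoter sequences bear on these genes because ATF4 acts together with C/EBP factors through a short element that contains TGATGNAA. This motif was searched on both strands in the 300 bases from 250 before to 50 after each start in RefSeq's GRCm38.p6 table, which held 27 of the 36 genes, Mars among them under the symbol Mars1. It was found in 5 of 27 synthetase genes (18.5%), against 1219 of 27025 genes of the table (4.51%). All 5 were cytosolic, 5 of 13 (38.5%), and 0 of 14 mitochondrial genes held it. The 30 bases around 1 match of each gene are written along the strand of the gene, with the match in capitals, to show how alike the sites are. Except in Yars, the motif reads on the other strand, so that the capitals end in CATCA.
Aars, chr8:111033840-111033869, plus strand: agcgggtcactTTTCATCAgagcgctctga
Gars, chr6:55037960-55037989, plus strand: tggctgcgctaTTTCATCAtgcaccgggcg
Iars, chr13:49682126-49682155, plus strand: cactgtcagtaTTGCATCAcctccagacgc
Tars, chr15:11399655-11399684, minus strand: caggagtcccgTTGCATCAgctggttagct
Yars, chr4:129189895-129189924, plus strand: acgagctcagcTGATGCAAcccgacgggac
Counted from the start site, the matches shown begin at base 9 in Aars, -30 in Gars, 7 in Iars, -15 in Tars and 3 in Yars. The 250 bases before the start of Mars, chr10:127311787-127312036 on the minus strand, are shown because its values head the list, and the window of Mars held no match.
Mars: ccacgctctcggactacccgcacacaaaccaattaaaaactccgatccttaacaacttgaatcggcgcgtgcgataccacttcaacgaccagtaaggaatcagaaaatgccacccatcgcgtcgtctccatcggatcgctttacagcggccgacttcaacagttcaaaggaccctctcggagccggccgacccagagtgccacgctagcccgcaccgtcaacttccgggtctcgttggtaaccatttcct
A match is a string of letters and not a measured site, and no match says only that these letters are not in this window. In microglia after IL-5 the log2 fold changes of the 5 genes with a match lay on both sides of 0. They were -0.76 for Aars, -0.07 for Gars, 0.28 for Iars, -1.41 for Tars and 0.48 for Yars, each with n = 2 libraries per group. These signs are uncertain, since Gars and Tars each turned on 1 library and Iars changed sign without IL-5 replicate 2. Nothing about the motif is read from them.

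Among the 8 enzymes of the multisynthetase complex, microglia after IL-5 held less Mars and Dars, and more Lars and Qars, than after PBS. Lars, the leucyl-tRNA synthetase, which also senses leucine for the growth kinase mTORC1, measured 13.6 and 2.80 CPM with PBS, against 47.8 and 23.8 CPM with IL-5. Its groups did not overlap, and its log2 fold change was 2.35 (SE 0.95). Qars, the glutaminyl-tRNA synthetase, measured 9.40 and 11.4 CPM with PBS, against 20.7 and 23.3 CPM with IL-5 (log2 fold change 1.24, SE 0.70). Dars, the aspartyl-tRNA synthetase, measured 58.2 and 49.0 CPM with PBS, against 18.5 and 45.9 CPM with IL-5. Its groups did not overlap, but most of the difference lay in IL-5 replicate 1. Eprs, which joins the glutamyl and prolyl enzymes in 1 protein, measured 25.6 and 22.7 CPM with PBS, against 15.3 and 29.5 CPM with IL-5, so that its groups overlapped. The remaining members, Iars, Kars and Rars, the enzymes for isoleucine, lysine and arginine, had log2 fold changes of 0.28, -0.79 and -0.82 with SEs from 0.997 to 1.32, and their groups overlapped. Over the 8 enzymes 3 log2 fold changes lay above 0 and 5 below, with a median of -0.33. The median was 0.056 without PBS replicate 2, with 4 on each side of 0, and 0.16 without IL-5 replicate 1, with 5 above 0.

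Outside the complex, Wars was the cytosolic member with the next lowest fold change after Mars. Wars, the tryptophanyl-tRNA synthetase, a known target of interferon gamma, measured 47.7 and 21.4 CPM in PBS microglia and 3.14 and 12.7 CPM in IL-5 microglia. Both IL-5 values lay below both PBS values (log2 fold change -2.08, SE 0.85). Aars, the alanyl-tRNA synthetase, measured 34.4 and 33.2 CPM with PBS, against 17.97 and 17.7 CPM with IL-5 (log2 fold change -0.76, SE 0.56). Nars, the asparaginyl-tRNA synthetase, was the most abundant member per kb in both microglia groups, and its values overlapped, with 109.6 and 84.5 CPM with PBS, against 76.7 and 117.3 CPM with IL-5. Vars and Cars, the valyl and cysteinyl enzymes, were the lower in both IL-5 libraries in CPM, Vars at 42.6 and 26.8 CPM with PBS, against 22.6 and 14.1 CPM with IL-5, and Cars at 22.8 and 28.8 CPM with PBS, against 16.6 and 9.07 CPM with IL-5. Farsa, a subunit of the phenylalanyl enzyme, had 10.7 CPM in IL-5 replicate 1 and 73.8 CPM in replicate 2, beside 55.8 and 65.2 CPM with PBS. Sars, the seryl enzyme, had the same pattern, with 10.5 and 74.5 CPM beside 42.5 and 62.1 CPM. In both genes the library that stood apart was the low one. Tars and Gars, the enzymes for threonine and glycine, each turned on 1 library. Tars had 0.42 and 15.8 CPM in the IL-5 libraries, from 10 and 430 counts, and Gars had 40.96 and 1.65 CPM, from 964 and 45 counts.

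Of the 14 mitochondrial synthetases tested, 11 had log2 fold changes below 0 in microglia after IL-5. Lars2, the mitochondrial leucyl-tRNA synthetase, went the other way, at 42.0 and 50.0 CPM in PBS microglia and 149 and 62.5 CPM in IL-5 microglia (log2 fold change 1.44, SE 0.59). Sars2, the mitochondrial seryl enzyme, measured 9.14 and 10.9 CPM with PBS, against 0.17 and 4.52 CPM with IL-5 (log2 fold change -2.10, SE 1.66). Rars2 and Yars2, the arginyl and tyrosyl enzymes, were lower in both IL-5 libraries. Rars2 had 29.4 and 26.7 CPM with PBS and 3.14 and 24.5 CPM with IL-5, and Yars2 had 20.3 and 23.2 CPM with PBS and 9.86 and 13.4 CPM with IL-5. Tars2, the threonyl enzyme, was among the even ones, at 15.8 and 15.2 CPM, against 12.2 and 12.1 CPM. Aars2 and Pars2, the alanyl and prolyl enzymes, had 0 counts in both IL-5 libraries and did not pass the filter on low counts in this comparison. Pars2 had 10 and 303 counts in the PBS libraries, at least 48.3-fold higher than 3 counts per IL-5 library, a bound that rests on PBS replicate 2. Aars2 had 3 counts in PBS replicate 1, the same as that limit, so no fold is given.

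Counted over all synthetases tested in microglia, 24 of 34 log2 fold changes lay below 0 and 10 above, where 49% of the 13764 genes tested lay above 0, and the median was -0.57 against -0.02 over all genes. The cytosolic median was -0.39 over 20 genes and the mitochondrial median -0.76 over 14 genes. On TMM-scaled CPM, in 12 genes both IL-5 values lay below both PBS values and in 4 genes above, where 21.1% and 17.4% of all genes tested did so. These counts describe a contrast that took part in the choice of the list, and nothing is read from them. By the edgeR test 0 of 13764 genes passed in either direction, with 617 (4.48%) at an unadjusted p under 0.05, while DESeq2 called 40 higher and 84 lower. IL-5 replicate 1 had the lowest value of the 4 microglia libraries in 19 of the 34 synthetases (55.9%), against 43.6% of all genes tested. Without that library the median was -0.23, and without IL-5 replicate 2 it was -0.87. With libraries scaled to the microglia markers, 21 of 34 lay below 0 and the median was -0.33, and the median of all genes was 0.17. Summed markers of other cell types also differed between the microglia groups. Choroid plexus markers summed to 34206 to 40736 CPM with PBS and 56732 to 60386.5 CPM with IL-5. Ttr alone gave 39917 and 33495 CPM with PBS, against 55913 and 59213 CPM with IL-5. Both IL-5 values lay above both PBS values in 4 of these 8 markers and below in 1. B cell markers summed to 116.6 to 176 CPM and 260.4 to 291 CPM. Among them Cd79a had 74.4 and 97.4 CPM with PBS, against 208 and 172 CPM with IL-5. Oligodendrocyte markers summed to 471 to 608 CPM and 186 to 376 CPM. Their part in these values was not tested.

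**Figure D2:**
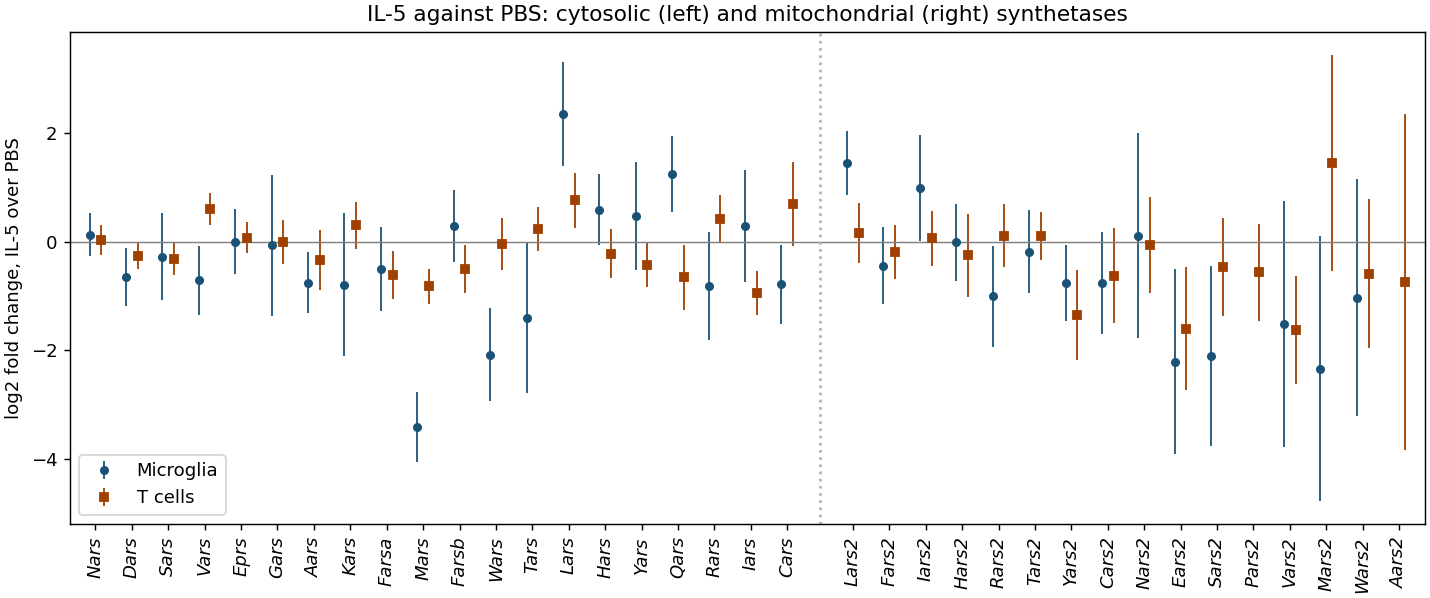
Log2 fold change of IL-5 over PBS for each synthetase, with bars of 1 SE and n = 2 libraries per group. Circles are microglia and squares are T cells. Aars2 and Pars2 have no microglia value because they did not pass the filter. Mars in microglia, at -3.41, is the lowest point, and Lars, at 2.35, is the highest microglia point.

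Summed over the 36 genes, synthetase levels were 880.4 and 849 CPM in PBS microglia and 587 and 818 CPM in IL-5 microglia. The lower sum was that of the library that stood apart, and the other IL-5 library lay near the PBS values. T cells held 2617 and 2797 CPM with PBS, against 2419 and 2381 CPM with IL-5. The cytosolic enzymes carried most of the sum in all 8 libraries, at 1.78 to 4.74 times the mitochondrial sum.

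In T cells, no synthetase passed the test for IL-5 against PBS, and neither did any other gene with edgeR (0% of 13897 genes), although 600 genes had an unadjusted p under 0.05 (4.32%). DESeq2 called 187 genes higher and 54 lower, none of them a synthetase. Mars was the only synthetase with an unadjusted p under 0.05, 1 of 36, against that background of 4.32%. Of the 36 log2 fold changes 13 lay above 0 and 23 below, where 49.2% of all genes tested lay above 0, with a median of -0.24 against -0.01 over all genes. This balance turned with the scaling, since with the libraries scaled to T cell markers 20 lay above 0 and 16 below, with a median of 0.05 against 0.28 over all genes. On TMM-scaled CPM, in 4 genes both IL-5 values lay above both PBS values and in 6 genes below, while 18.1% and 17.3% of all genes tested did so.

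The members with the smallest p in T cells after Mars were Iars and Vars. Iars, the isoleucyl-tRNA synthetase, measured 84.5 and 72.0 CPM with PBS, against 37.2 and 41.3 CPM with IL-5 (log2 fold change -0.95, SE 0.41). Both IL-5 values were the lower ones, with little spread inside each group. Vars, the valyl-tRNA synthetase, measured 111.6 and 173 CPM with PBS, against 224 and 192 CPM with IL-5 (0.60, SE 0.30), with no overlap in the other direction. Lars measured 67.8 and 29.7 CPM with PBS, against 85.2 and 74.8 CPM with IL-5 (0.76, SE 0.51), so that in both cell types its IL-5 values were above its PBS values. Vars2, the mitochondrial valyl enzyme, measured 21.5 and 32.8 CPM with PBS, against 4.39 and 12.7 CPM with IL-5 (-1.62, SE 0.995). Rars measured 49.8 and 56.3 CPM with PBS, against 85.3 and 51.95 CPM with IL-5 (0.42, SE 0.44). Adjusted over all genes, each of these had an edgeR adjusted p = 0.9999.

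Wars, low in IL-5 microglia, measured 85.9 and 58.4 CPM in PBS T cells and 89.5 and 46.3 CPM in IL-5 T cells (log2 fold change -0.04, SE 0.48). Its groups overlapped. Of the interferon gamma response genes tested in T cells, 0 of 18 log2 fold changes lay above 0, with a median of -0.63, and 0 passed after adjustment. With the libraries scaled to T cell markers 4 of 18 lay above 0, with a median of -0.34. Among them Psmb8, a subunit of the immunoproteasome, measured 837 and 943 CPM with PBS, against 462 and 634 CPM with IL-5 (-0.65, SE 0.20, edgeR adjusted p = 0.9999). Gars and Kars, whose genes serve both the cytosol and the mitochondria, and Yars, the tyrosyl enzyme, had T cell fold changes of -0.01 (SE 0.40), 0.30 (SE 0.43) and -0.43 (SE 0.40). All these lay within about 1 SE of 0.

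In the PBS mice synthetases made up a larger share of the counts in T cells than in microglia, and the pair of members that passed the test belong to the multisynthetase complex. Eprs measured 25.6 and 22.7 CPM in microglia, against 129 and 177 CPM in T cells, and it was higher in T cells at a log2 fold change of 1.89 (SE 0.43, edgeR adjusted p = 0.0294). Iars measured 7.99 and 7.18 CPM in microglia, against 84.5 and 72.0 CPM in T cells, and it was higher in T cells as well (2.60, SE 0.68, edgeR adjusted p = 0.04997). These were the 2 of 36 synthetases that passed in the higher direction, where 2.41% of the 15397 genes tested did, and 0 passed in the lower direction, where 5.07% did. The nearest outside the threshold were Qars at 2.07 (SE 0.67, edgeR adjusted p = 0.104) and Dars at 1.25 (SE 0.41, edgeR adjusted p = 0.107). Leaving out any of the 4 PBS libraries ended both calls, with edgeR adjusted p from 0.0671 to 0.197 for Eprs and from 0.145 to 0.258 for Iars. The Iars call was also lost without either IL-5 T cell library (0.0700 and 0.0738) and with the replicate number as a block (0.0784).

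Across the whole set 29 of 36 log2 fold changes lay above 0, where 49.7% of all genes tested did, with a median of 0.87 against 0.00 over all genes tested, and 10 had an unadjusted p under 0.05, all higher in T cells, where 9.29% of all genes tested were so. Scaling by library size alone moved the median of all genes to 0.75 and that of the synthetases to 1.64, with 35 of 36 above 0. The 8 complex enzymes were all above 0, from 0.55 for Mars to 2.60 for Iars, with a median of 1.84. Mars is listed without a test here because its PBS microglia values took part in the choice of the list. The 12 other cytosolic enzymes had a median of 1.06 and the 16 mitochondrial enzymes 0.70. The lowest value was that of Cars, the cysteinyl enzyme, at -1.03 (SE 0.82, edgeR adjusted p = 0.505).

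In CPM, all 4 T cell libraries lay above all 4 microglia libraries in 20 of the 36 genes, 15 cytosolic and 5 mitochondrial, where 25.9% of all genes tested did so. The reverse order held in 0 of 36 genes, where 8.14% did so. The 5 mitochondrial genes were Fars2, Iars2, Pars2, Sars2 and Tars2. The 5 cytosolic genes that overlapped were Cars, Farsa, Farsb, Lars and Wars. Kars, the lysyl enzyme, had 1.19 to 17.8 CPM over the microglia libraries and 79.5 to 175 CPM over the T cell libraries. All 5 genes with the TGATGNAA motif were among those with separate cell types, with log2 fold changes of 1.41 for Aars, 1.68 for Gars, 2.60 for Iars, 0.94 for Tars and 1.94 for Yars. Most cytosolic genes searched without a match were separate as well, namely Dars, Eprs, Kars, Mars, Qars and Sars, but not Farsa and Farsb. Separate cell types were therefore not particular to genes with the motif.

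**Figure D3:**
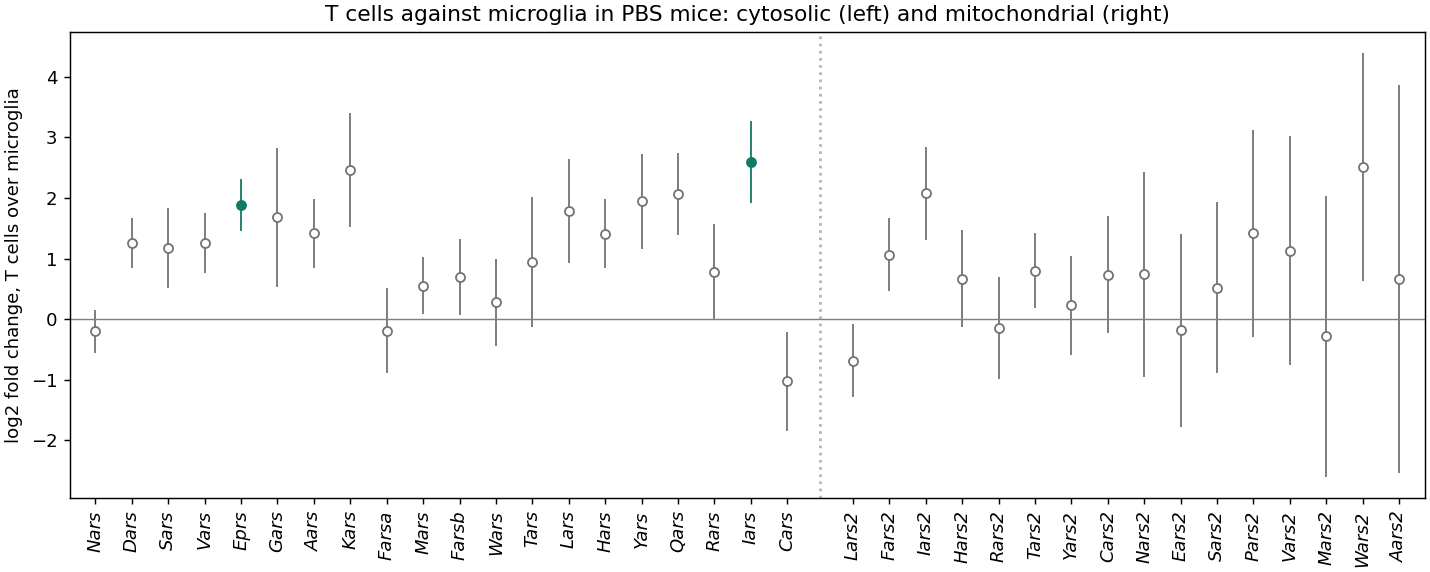
Log2 fold change of T cells over microglia in PBS mice for each synthetase, from the fit of all 8 libraries, with bars of 1 SE. Filled points passed the edgeR test at an adjusted p under 0.05, and Mars was not tested. Eprs at 1.89 and Iars at 2.60 are the filled points, and 29 of 36 points lie above 0.

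**Figure D4:**
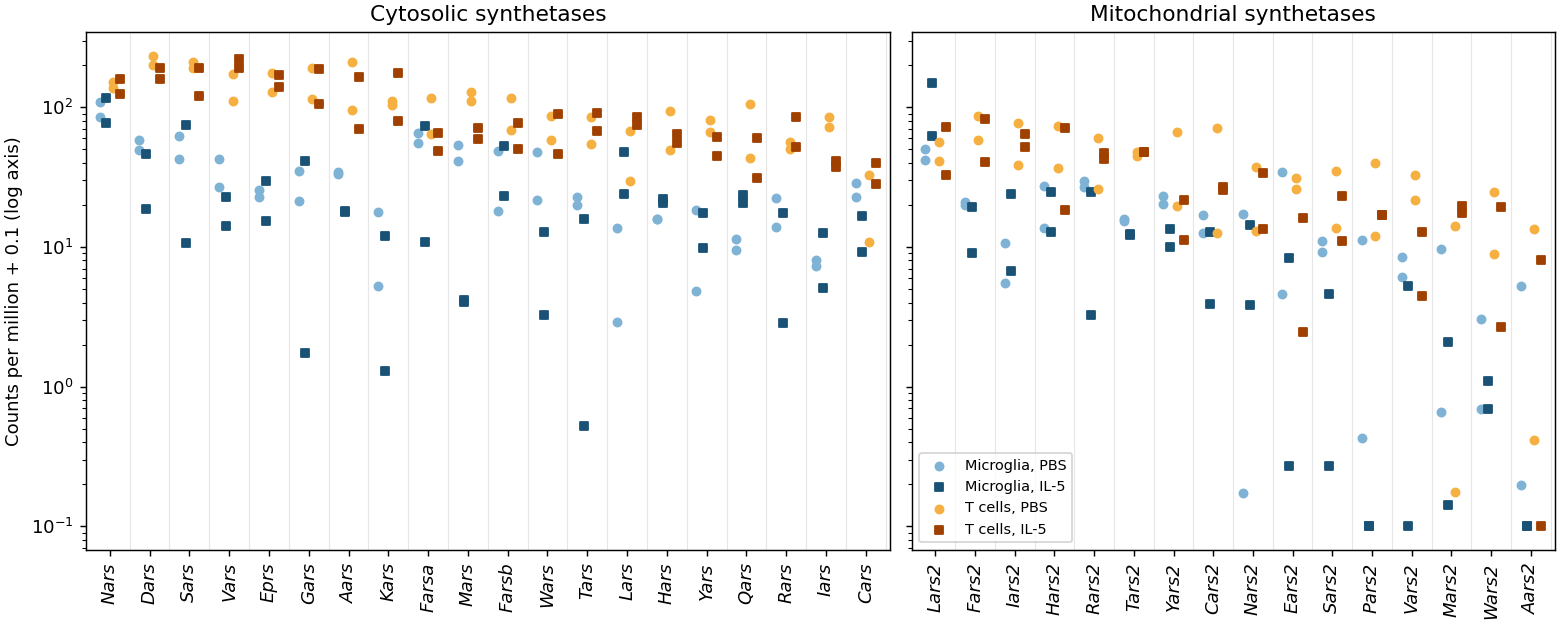
CPM of every synthetase in the 8 libraries, with 0.1 added, on a log axis, ordered by mean level. Circles are PBS and squares are IL-5, blue for microglia and orange or brown for T cells. In 20 genes all T cell points lie above all microglia points, and points at the bottom edge had a count of 0.

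Levels of different genes are compared here per kb of exon, with the exons of all annotated transcripts merged. That length was 18.1 kb for Eprs and 3.42 kb for Mars. It can exceed the length of the transcripts present, which places a gene lower, so the order depends on this choice. In PBS microglia Nars led at 22.3 CPM per kb, and both its libraries lay above both of Mars, next at 13.9. Behind Nars, neighbours in the order overlapped down to Fars2 in place 20. In PBS T cells the order was led by Dars at 49.9 and Gars at 48.9 CPM per kb, followed by Sars at 39.1, Farsb at 35.3, Mars at 34.8 and Nars at 33.1, and each of these overlapped the next. The median cytosolic enzyme had 6.63 and 4.57 CPM per kb in the PBS microglia libraries and 19.97 and 20.3 CPM per kb in the PBS T cell libraries. The median mitochondrial enzyme had 1.999 and 2.76 CPM per kb in microglia and 4.59 and 6.03 CPM per kb in T cells. The lowest in PBS microglia were Wars2, Mars2 and Aars2, at 0.297, 0.4502 and 0.547 CPM per kb.

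The spread between replicates set how far each gene could be followed. In PBS T cells the median fold between replicates was 1.497 for cytosolic and 2.35 for mitochondrial synthetases, on CPM with 1 added, against 1.59 for all genes tested. More than 2-fold separated the replicates in 4 of 20 cytosolic and 9 of 16 mitochondrial enzymes there. In IL-5 microglia the medians were 2.11 and 2.86, against 1.92 for all genes, and in PBS microglia 1.29 and 1.34, against 1.46. Single genes could be present in 1 replicate and nearly absent in the other: Nars2 had 524 and 2 counts in PBS microglia, Mars2 had 2 and 362 in PBS T cells, and Aars2 had 350 and 8 in PBS T cells. These pairs lie far outside counting error. The mitochondrial enzymes were also lower in level, with a median of 35.2 CPM in PBS T cells against 91.5 CPM for the cytosolic ones, and the part of level in this spread was not tested.

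**Figure D5:**
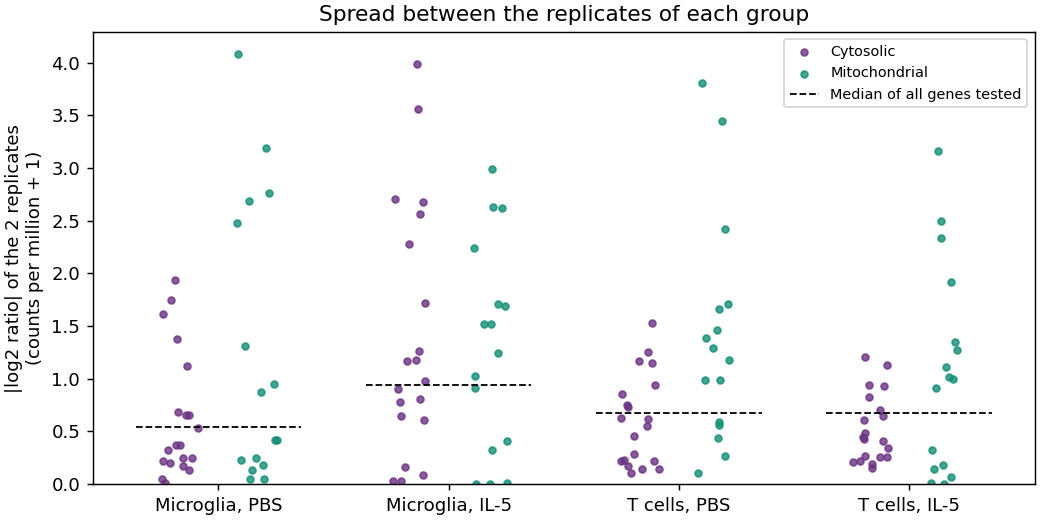
Absolute log2 ratio of the replicates of each group, from CPM with 1 added, for each cytosolic and mitochondrial synthetase. Aars2 and Pars2, not tested in microglia, are drawn as well, and lie at 0 in IL-5 microglia because both had 0 counts there. Dashed lines are medians over all genes tested. Mitochondrial points reach above 3 in PBS microglia and in both T cell groups, and in PBS T cells 9 of 16 exceed a ratio of 2-fold.

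Annotation overlap makes some members uncertain. Exons of another gene covered more than 10% of the exon length in 3 members: Aars (Exosc6 on the same strand, 14.3%), Iars2 (Rab3gap2 on the opposite strand, 22.9%) and Fars2 (Nrn1 and Lyrm4 on the opposite strand, 10.7% together). Hars and Hars2, the cytosolic and mitochondrial histidyl enzymes, start back to back and share 195 exonic bases on opposite strands.

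The 3 scaffolds of the multisynthetase complex did not pass the test in any comparison. Aimp1 measured 30.3 and 15.8 CPM in PBS microglia and 12.7 and 12.3 CPM in IL-5 microglia (log2 fold change -0.71, SE 0.72). Eef1e1 measured 49.99 and 30.05 CPM in PBS microglia and 56.0 and 60.8 CPM in IL-5 microglia (0.70, SE 0.48), and Aimp2 had -0.53 (SE 0.59). In T cells after IL-5 the values were 0.77 (SE 0.72) for Aimp1, 0.38 (SE 0.58) for Aimp2 and -0.20 (SE 0.48) for Eef1e1. Between the cell types 0 of 3 scaffolds lay above 0, with a median of -0.27, although scaling by library size alone put all of them above 0, from 0.13 to 0.67.

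The elongation factors, which take charged transfer RNAs to the ribosome and move it along, had 2 of 5 genes pass the test as higher in T cells than in microglia, where 2.41% of all genes tested did, and all 5 log2 differences lay above 0. Eef1a1, the carrier of charged transfer RNA, measured 210.2 and 227 CPM in PBS microglia and 1888 and 1989 CPM in PBS T cells (a log2 difference of 2.38, SE 0.31, edgeR adjusted p = 0.00235). Eef2, the translocase, measured 70.2 and 119 CPM in microglia, against 934 and 775 CPM in T cells (2.42, SE 0.40, edgeR adjusted p = 0.00718). After IL-5 none of the 5 passed in T cells, where all lay below 0 with a median of -0.18, but 4 of 5 above 0 under scaling to T cell markers. In microglia their median was -0.04, and 0.11 under scaling to microglia markers.

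Of 11 genes of transfer RNA maturation and export, 4 had log2 differences below 0 and 1 passed the test as lower in T cells than in microglia, where 5.07% of all genes tested did. It was Tsen34, a subunit of the splicing endonuclease, at -2.04 (SE 0.43, edgeR adjusted p = 0.0219). Of 6 genes of editing and release, 4 lay below 0 and 1 passed the test as lower, Ptrh2, a peptidyl-tRNA hydrolase, at -2.15 (SE 0.51, edgeR adjusted p = 0.0354). Of 15 mitochondrial partners 0 passed, with a median of -0.22, which was 0.58 with library size only. In microglia after IL-5, Xpot, the exporter of transfer RNA from the nucleus, measured 26.5 and 18.5 CPM with PBS, against 59.5 and 52.5 CPM with IL-5 (1.49, SE 0.52, edgeR adjusted p = 0.964). Gatb, a subunit of the mitochondrial amidotransferase that completes glutaminyl-tRNA, measured 0.53 and 3.61 CPM with PBS, against 33.6 and 12.6 CPM with IL-5 (3.73, SE 1.27, edgeR adjusted p = 0.964). Both had separate groups, and neither passed.

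ATF4 targets outside the synthetases were also followed, since ATF4 is known to raise many cytosolic synthetase genes. Atf4 measured 250.4 and 311 CPM in PBS microglia and 120.0 and 182 CPM in IL-5 microglia, with both IL-5 values below both PBS values (log2 fold change -0.76, SE 0.38, edgeR adjusted p = 0.964). Asns, the asparagine synthetase, an ATF4 target that makes an amino acid rather than charging a transfer RNA, had 3.75 and 4.86 CPM in PBS microglia and 0 counts in both IL-5 libraries, at least 36.2-fold lower than in PBS when set at 3 counts per library. Over the list 8 of 30 log2 fold changes lay above 0, with a median of -0.51, also with genes at 0 set to their bound, and 0 passed. That median was -0.28 with libraries scaled to the microglia markers, -0.31 when IL-5 replicate 1 was left out and -1.03 when IL-5 replicate 2 was. In T cells after IL-5, Atf4 measured 320.3 and 223 CPM with PBS, against 189 and 229.99 CPM with IL-5 (-0.33, SE 0.27), and Asns measured 15.0 and 28.2 CPM with PBS, against 9.21 and 32.3 CPM with IL-5. Both overlapped, and the list had 11 of 29 above 0, a median of -0.13 and 0 genes that passed, while scaling to T cell markers put 18 of 29 above 0, with a median of 0.23. Cth, an enzyme of cysteine synthesis, had 0 counts in both PBS T cell libraries and 10.4 and 12.3 CPM with IL-5, at least 98.6-fold higher by the same limit. Chac1, which breaks down glutathione, also had 0 counts in both, with 17.3 and 1.66 CPM with IL-5. Neither passed after adjustment (edgeR adjusted p = 0.9999).

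Between T cells and microglia of PBS mice, the ATF4 targets had 1 of 31 pass the test as higher in T cells and 3 as lower, where 2.41% and 5.07% of all genes tested did. Cebpb, a transcription factor of myeloid cells, was lower in T cells, with 620.4 and 821 CPM in microglia, against 108 and 161 CPM in T cells (a log2 difference of -3.19, SE 0.46, edgeR adjusted p = 0.00402). Nupr1, a stress-induced nuclear protein, was lower at -3.31 (SE 0.54, edgeR adjusted p = 0.00722). Aldh18a1, which starts proline synthesis, had 0 counts in both PBS microglia libraries and 86.8 and 41.1 CPM in T cells (edgeR adjusted p = 0.0148). Allowing for counting error only, it was at least 612-fold higher. The IL-5 microglia libraries held 0 and 36 counts of it. Over the list 12 of 31 lay above 0, with a median of -0.43, also with genes at 0 set to their bound. With library size only 16 of 31 lay above 0, with a median of 0.33, against 35 of 36 among the synthetases.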

How the data were processed

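RNA was sequenced from 8 libraries of sorted mouse cells. Read counts for each gene were deposited by the authors in 1 table, as unscaled whole numbers. Per the submitters' processing notes the tools included STAR 2.5.3a, Cufflinks 2.0 and DESeq2 1.1, with mouse builds mm10 and GRCm38. The counting tool and strand setting are not given in the sources used here. Of 24951 genes, 27 with 53 unreadable cells were left out. Exon lengths and coordinates came from GENCODE M21 on GRCm38, and promoters from RefSeq.

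Testing used the quasi-likelihood method of edgeR 4.0.16 under R 4.3.3 (TMM, filterByExpr with a minimum count of 10, robust fit), two-sided, with Benjamini-Hochberg adjustment over all genes and a threshold of 0.05. IL-5 was fitted within each cell type, and T cells against microglia in all 8 libraries. An SE is the fold change divided by the root of its F statistic. The code was run on simulated counts with known changes. Its only pass condition was set at a spread below the observed one. How often true changes pass at the observed spread is not given here, so a count of 0 calls does not show that nothing changed. Alternatives were DESeq2 1.42.0, RLE factors, library size only, no filter, 5 CPM in 2 libraries, the replicate number as a block, other sets of libraries in the fit, and each library left out; scaling to cell type markers was chosen after seeing the data. In each group 84.8% to 90.6% of genes differed between replicates by more than sampling noise, so no library was counted as a duplicate.

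Named with full values were Mars, members whose microglia groups did not overlap and had the largest changes at a mean of at least 5 CPM (up to 3 per direction), the 3 members per direction with the smallest p in T cells, members past the threshold between cell types, a fixed set (Mars2, Wars, Kars, Gars, Yars, Ddit3, Atf4, Asns and the scaffolds), and from each partner list the genes with the smallest p. Others were named after their values were seen. The members and lists were chosen with earlier results of these data known.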

Additional observations from a re-analysis of the deposited data

How the results depend on the processing

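With 2 libraries per group, counts of calls moved with the tool and with single libraries. In microglia the edgeR count of 0 became 40 higher and 84 lower with DESeq2, and leaving out each library gave 0 to 532 higher and 0 to 723 lower, the top of both without IL-5 replicate 2. In T cells after IL-5 the count of 0 higher became 187 with DESeq2, 2 without a filter, 2 with all 8 libraries in the fit, and 0 to 1 with each library left out (1 without PBS replicate 2), and 0 lower became 54 with DESeq2. No setting called a synthetase in that comparison. Between cell types the 371 genes higher in T cells became 1334 with DESeq2, 918 with library size only, 641 without a filter, 594 with only the 4 PBS libraries, and 134 to 831 with each library left out. The 780 lower became 1704 with DESeq2, 376 with library size only, and 349 to 1197 with each library left out, and both tops came without microglia IL-5 replicate 2. The 2 synthetases became 6 with DESeq2, 6 with library size only, 1 with the replicate block, and 0 to 5 with each library left out. They were 0 without any 1 of the 4 PBS libraries, 1 without either IL-5 T cell library, and 5 without either IL-5 microglia library. The cause of these changes was not tested.

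Libraries with the same replicate number had deviations from their group means that correlated at 0.00996, 0.0106 and 0.0157 over 15397 genes in the 3 comparisons. No shift shared by same-numbered libraries was thus visible across genes in these 3 pairs of groups. IL-5 microglia and IL-5 T cells were not paired in this way. The correlations cannot show whether same-numbered libraries came from the same mice or day. The block left the genes called at 0 in both IL-5 comparisons and at 287 higher and 663 lower between cell types.

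In microglia, given as a description, Iars went from 0.28 to -0.27 without IL-5 replicate 2, and Eprs was -0.32 without that library and 0.27 without IL-5 replicate 1. In T cells after IL-5, leaving out each library moved Aimp2 from -0.042 to 0.98, Asns from -1.17 to 0.61, Eef1e1 from -0.52 to 0.10, Eprs from -0.13 to 0.30, Gars from -0.48 to 0.39, Kars from -0.40 to 0.76, Lars2 from -0.52 to 0.60, Qars from -1.20 to 0.10, Sars2 from -1.09 to 0.38 and Wars from -0.61 to 0.36. Scaling to T cell markers, which moved all genes by a median of 0.29, gave 0.23 for Asns, 0.16 for Eef1e1, 0.28 for Gars and 0.28 for Wars, while the same scaling in microglia moved all genes by 0.19. Between cell types, library size only gave 0.67 for Aimp1, 0.13 for Aimp2, 0.59 for Ddit3, 0.51 for Eef1e1, 0.081 for Lars2 and 0.48 for Mars2. There, leaving out each library moved Aimp1 from -1.001 to 0.54, Ddit3 from -0.50 to 0.21, Eef1e1 from -0.62 to 0.18, Mars2 from -6.66 to 2.83, Sars2 from -0.24 to 1.097 and Wars from -0.20 to 1.02. Library size only moved all genes by -0.14 in microglia after IL-5. Mars ranged over the settings run from -0.95 to -0.53 in T cells after IL-5, and from -3.62 to -3.21 in microglia, where the choice of the list fixed its sign.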
